A study of Homo sapiens with 9 samples.

Results

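The mRNAs of the vault particle and of the proteins that process vault RNA (vtRNA) were followed in Huh-7 cells with and without a vault RNA gene. The set held 7 of the 60664 genes in the count table: MVP, TEP1 and PARP4, which encode the proteins of the particle, and SSB, NSUN2, SRSF2 and DUSP11, whose products bind or modify vtRNA. They were taken by symbol through their Ensembl identifiers, by a rule without measured values, but with earlier results of these data known. All 7 passed the filter on low counts that left 17207 genes for testing. The Huh-7 line comes from a human hepatocellular carcinoma. The 3 lines were WT, 1-1 KO, in which VTRNA1-1 was knocked out with CRISPR/Cas9, and 1-2 KO, in which VTRNA1-2 was knocked out by the same means, with 3 libraries each. All were untreated and grown in complete medium to 80% confluency. WT and 1-1 KO cells came from another laboratory, and 1-2 KO was a single cell clone of the WT cells. Each knockout was thus 1 line, and what the deletion does and how the lines otherwise differ cannot be told apart. The study calls the 3 libraries of a line biological replicates but does not describe them as separate cultures, and p-values measure the spread between these libraries only.

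Vaults are large hollow ribonucleoprotein particles of the cytoplasm. Their shell is built of many copies of the major vault protein MVP, PARP4 is an ADP-ribosyltransferase carried inside, and TEP1, which also associates with telomerase, binds vtRNA and holds it in the particle. Most vtRNA is free of the particle. It is made by RNA polymerase III from promoter elements inside the gene, the A box and the B box, and ends in a run of U. La, the product of SSB, binds that run, DUSP11 removes phosphates from the 5′ end, NSUN2 methylates cytosines, and SRSF2 binds vtRNA and influences its cutting into small RNAs.

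The vault RNA genes are shown because 2 of them are the genes knocked out. Their boxes serve transcription by RNA polymerase III, and La binds the 3′ end of their RNA. They are printed 5′ to 3′ on the transcribed strand from GRCh38, with matches to the A box letters TNGCNNAGNGG and the B box letters GTTCGANNC in capitals.
VTRNA1-1: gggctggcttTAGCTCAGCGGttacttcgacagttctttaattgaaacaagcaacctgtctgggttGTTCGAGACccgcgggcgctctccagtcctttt
VTRNA1-2: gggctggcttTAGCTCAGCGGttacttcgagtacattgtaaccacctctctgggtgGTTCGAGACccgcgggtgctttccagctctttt
VTRNA1-3: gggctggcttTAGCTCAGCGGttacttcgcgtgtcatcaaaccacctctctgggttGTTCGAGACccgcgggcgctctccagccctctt
VTRNA2-1: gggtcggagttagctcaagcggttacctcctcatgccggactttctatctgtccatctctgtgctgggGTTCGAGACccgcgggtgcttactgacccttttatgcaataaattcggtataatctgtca
VTRNA1-1 lies at chr5:140711275-140711373, VTRNA1-2 at chr5:140718925-140719013 and VTRNA1-3 at chr5:140726158-140726246, all on the plus strand, and VTRNA2-1 at chr5:136080470-136080597 on the minus strand. The 3 VTRNA1 genes share their first 29 nt, and VTRNA1-2 and VTRNA1-3 are identical at 77 of 89 positions. The B box letters were found in all 4 genes and the A box letters in the 3 VTRNA1 genes. Of 35116 RefSeq promoter windows of 89 nt on GRCh38.p14, searched on both strands, 1.33% held the A box letters and 0.199% the B box letters. These windows lay just before gene starts, whereas the vault RNA genes were searched over their whole length and on the transcribed strand alone. The annotated gene ended in 4 T in VTRNA1-1 and VTRNA1-2 and in 2 T in VTRNA1-3, whereas the VTRNA2-1 entry runs on past a run of T.

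The libraries were made from mRNA and carried almost no vtRNA. VTRNA1-2 and VTRNA2-1 had 0 counts in all 9 libraries, VTRNA1-1 had 1 count in WT replicate 1 and 0 elsewhere, and VTRNA1-3 had between 0 and 2. The knockouts can therefore not be checked from these counts. Total counts were between 32384469 and 41782387 per library. Of these, 1 library stood apart from its line: the counts of 1-2 KO replicate 1 differed from those of the other 1-2 KO libraries by a chi-square per degree of freedom of 15.1 and 16.1, against 2.67 between those other libraries. Among the WT libraries this value was 5.03 between replicates 1 and 2, 6.41 between 2 and 3 and 10.4 between 1 and 3. All 10 hepatocyte markers on the list were detected in every line, and their summed level was between 15766 and 16743 CPM (counts scaled to a common library size) in WT libraries, 32107 and 32998 in 1-1 KO, and 22122 and 24352 in 1-2 KO. The 10 markers of other liver cells summed to 136 CPM in each WT library, between 125 and 130 in 1-1 KO and 41.7 and 44.02 in 1-2 KO, and CD3E, CDH5, VWF and DCN had at most 7 counts in any library. The sums rested on few genes. LYZ alone was at 113 CPM in WT, 102 in 1-1 KO and 19.2 in 1-2 KO, whereas 4 of the 6 tested markers of other liver cells rose in 1-2 KO (2 with DESeq2 on the 2 lines alone or with no filter) and 2 fell. Of the 10 hepatocyte markers, led by ALB and AFP, 9 rose in 1-1 KO, while in 1-2 KO 5 rose and 3 fell. Over all tested genes, 32.5% rose and 30.9% fell in 1-1 KO, and 28.2% and 26.2% did so in 1-2 KO. The part of either list in the results was not tested.

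Levels are given as CPM with library sizes normalized by edgeR's trimmed mean of M values (TMM). Differences are log2 fold changes from the quasi-likelihood test of edgeR, p-values were adjusted after Benjamini and Hochberg over the 17207 genes, and an mRNA with an adjusted p under 0.05 was called. In these mRNA pools, a change in every cell and a change in some of the cells cannot be told apart.

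Of the 7 mRNAs, 2 rose and 4 fell in 1-1 KO compared to WT, none rose and 4 fell in 1-2 KO compared to WT, and 5 were higher and 2 lower in 1-2 KO than in 1-1 KO. Among all tested genes, 32.5% were called higher and 30.9% lower in 1-1 KO compared to WT, 28.2% higher and 26.2% lower in 1-2 KO compared to WT, and 33.1% higher and 32.2% lower in 1-2 KO compared to 1-1 KO. The count of 0 risen in 1-2 KO was 0 also at an unadjusted p under 0.05 and with DESeq2. The median log2 fold change of the 7 was -0.12 in 1-1 KO and -0.12 in 1-2 KO, against 0.01 and 0.02 over all tested genes. Their sizes were small within this series, with a median absolute log2 fold change of 0.26 in 1-1 KO against 0.35 over all tested genes, and of 0.12 in 1-2 KO against 0.27. These medians were not matched for level, and the tested genes include some with far fewer counts than the 7. NSUN2, SSB, MVP and TEP1 were called in both knockouts, PARP4 and SRSF2 in 1-1 KO, and DUSP11 in neither. The libraries of the 2 lines compared did not overlap for 6 of the 7 mRNAs in 1-1 KO against WT, 4 in 1-2 KO against WT and 6 in 1-2 KO against 1-1 KO. Over all tested genes this held for 68.9%, 58.4% and 69.8%. Both knockouts were set against the same WT libraries, so their values are given side by side.

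**Figure D1:**
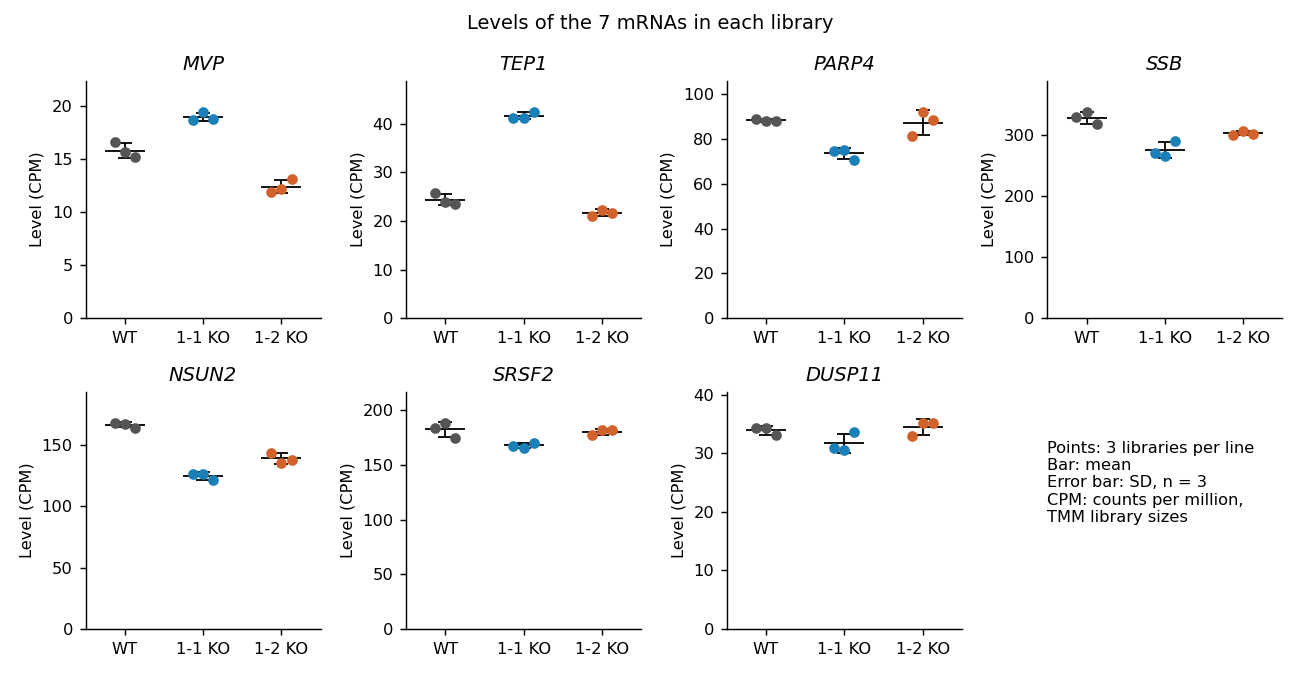
Levels of the 7 mRNAs in CPM with TMM library sizes, on axes that start at 0, for 3 libraries per line; points are libraries, bars the mean and error bars the SD. MVP and TEP1 were highest in 1-1 KO and lowest in 1-2 KO, NSUN2 and SSB were highest in WT, and DUSP11 overlapped between the lines.

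MVP, the shell protein, changed in opposite directions in the knockouts. Its level was 16.6, 15.7 and 15.1 CPM in the WT libraries, 18.7, 19.4 and 18.7 CPM in 1-1 KO, and 11.9, 12.2 and 13.1 CPM in 1-2 KO. No library of one line reached the range of another. The mean was 15.8 ± 0.727 CPM in WT, 18.9 ± 0.407 in 1-1 KO and 12.4 ± 0.635 in 1-2 KO (SD, n = 3). In 1-1 KO the log2 fold change was 0.26 (95% interval 0.13 to 0.39, adjusted p = 0.00184), a rise of 19.9%. In 1-2 KO it was -0.35 (-0.49 to -0.22, adjusted p = 0.000281), a fall of 21.6%. The direct comparison gave a log2 fold change of -0.61 in 1-2 KO relative to 1-1 KO (adjusted p = 7.4e-07), so that MVP was 1.53-fold higher in 1-1 KO. These values rest on between 477 and 798 counts per library, and each call was kept without any 1 library and under every alternative tried.

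TEP1, the vtRNA-binding protein of the particle, showed the largest difference of the 7. Its level was 25.7, 23.97 and 23.5 CPM in WT, 41.3, 41.2 and 42.4 CPM in 1-1 KO, and 20.9, 22.3 and 21.7 CPM in 1-2 KO. All 1-1 KO libraries lay far above WT, and all 1-2 KO libraries a little below it. The log2 fold change was 0.77 in 1-1 KO (95% interval 0.66 to 0.88, adjusted p = 9.1e-09), or 1.70-fold, and 20.9% of all tested genes had a larger change in either direction. In 1-2 KO it was -0.17 (-0.28 to -0.06, adjusted p = 0.011), a fall of 11.3%. That call was lost without WT replicate 1 (log2 fold change -0.13, adjusted p = 0.0602), with DESeq2 on the 2 lines alone (adjusted p = 0.0634) and with library size alone as the scale (adjusted p = 0.0574). TEP1 was 1.92-fold higher in 1-1 KO than in 1-2 KO (log2 fold change -0.94 for 1-2 KO relative to 1-1 KO, adjusted p = 8.2e-10), and this comparison kept its call in every setting.

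PARP4, the ADP-ribosyltransferase of the particle, fell in 1-1 KO. Its level was 88.8, 88.1 and 87.9 CPM in WT, 74.7, 75.2 and 70.8 CPM in 1-1 KO, and 81.4, 92.1 and 88.5 CPM in 1-2 KO. The 1-1 KO libraries were all below the others, whereas the 1-2 KO libraries lay on both sides of WT, with replicate 1 the lowest. The log2 fold change was -0.26 in 1-1 KO (95% interval -0.36 to -0.17, adjusted p = 0.000137), a fall of 16.7%. In 1-2 KO it was -0.02 (-0.11 to 0.08, adjusted p = 0.78), an interval that leaves room for a change of either sign, and without 1-2 KO replicate 1 it was 0.03. PARP4 was higher in 1-2 KO than in 1-1 KO by a log2 fold change of 0.25 (adjusted p = 0.000216).

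**Figure D2:**
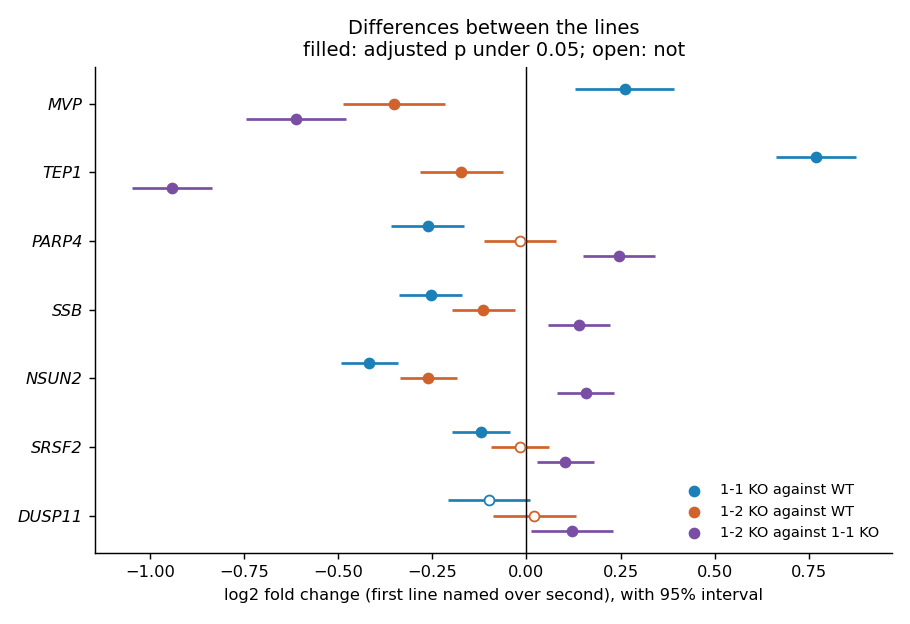
Log2 fold changes of the 7 mRNAs with 95% intervals for 1-1 KO against WT, 1-2 KO against WT and 1-2 KO against 1-1 KO, filled where the adjusted p was under 0.05. MVP and TEP1 lay on opposite sides of 0 in the knockouts, at 0.26 and 0.77 in 1-1 KO and at -0.35 and -0.17 in 1-2 KO, while SSB and NSUN2 lay below 0 in both.

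The ratios between the mRNAs of the 3 particle proteins did not overlap between the lines. The ratio of 2 mRNAs within a library does not depend on how libraries are scaled, and was taken on RPKM, the CPM divided by the length of the gene in kilobases, here that of its merged exons. The TEP1/PARP4 ratio was 0.154, 0.144 and 0.142 in WT, 0.293, 0.290 and 0.318 in 1-1 KO, and 0.136, 0.129 and 0.130 in 1-2 KO. It was 2.05-fold higher in 1-1 KO than in WT and 1.11-fold higher in WT than in 1-2 KO, with no overlap between lines. The MVP/PARP4 ratio was 0.176 ± 0.00715 in WT, 0.253 ± 0.00696 in 1-1 KO and 0.140 ± 0.00864 in 1-2 KO (SD, n = 3), which is 1.44-fold higher in 1-1 KO than in WT and 1.26-fold higher in WT than in 1-2 KO. The MVP/TEP1 ratio was 1.20 ± 0.0105 in WT, 0.844 ± 0.0283 in 1-1 KO and 1.06 ± 0.0550 in 1-2 KO (SD, n = 3), and was thus highest in WT. All 9 comparisons of a ratio between 2 lines gave p = 0.1 in an exact two-sided permutation test, the smallest value that 3 against 3 libraries allow, so that none could reach 0.05.

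**Figure D3:**
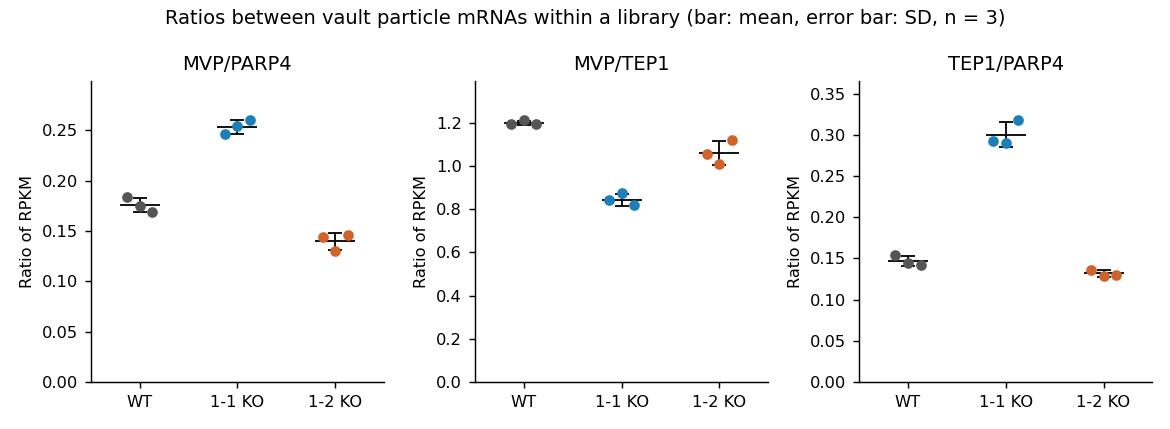
Ratios of length-normalized levels between MVP, PARP4 and TEP1 mRNA in each of the 9 libraries, with the mean and SD of 3 libraries per line on axes that start at 0. TEP1/PARP4 was 0.300 in 1-1 KO against 0.147 in WT, and MVP/TEP1 was highest in WT at 1.20.

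Among the vtRNA processing proteins, NSUN2, the cytosine methyltransferase, fell in both knockouts. Its level was 168, 167 and 164 CPM in WT, 127, 126 and 121 CPM in 1-1 KO, and 144, 135 and 138 CPM in 1-2 KO. The lines were fully apart, with WT highest and 1-1 KO lowest. The log2 fold change was -0.42 in 1-1 KO (95% interval -0.49 to -0.34, adjusted p = 1.3e-07), a fall of 25.1%, and -0.26 in 1-2 KO (-0.34 to -0.19, adjusted p = 2.0e-05), a fall of 16.5%. The fall was the smaller in 1-2 KO, by a log2 fold change of 0.16 between the knockouts (adjusted p = 0.00123). No alternative or left-out library changed these calls. In 1-1 KO, 43.2% of all tested genes had a larger absolute change, and 51.7% did in 1-2 KO.

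SSB, which encodes La, fell in 1-1 KO and less in 1-2 KO. Its level was 328, 337 and 317 CPM in WT, 269, 265 and 289 CPM in 1-1 KO, and 299, 307 and 301 CPM in 1-2 KO. The lines did not overlap, with WT highest and 1-1 KO lowest. The log2 fold change was -0.25 in 1-1 KO (95% interval -0.34 to -0.17, adjusted p = 5.2e-05), a fall of 16.2%, and -0.12 in 1-2 KO (-0.20 to -0.03, adjusted p = 0.0218), a fall of 7.68%. The call in 1-2 KO was lost without WT replicate 1 (adjusted p = 0.0510), WT replicate 2 (0.0888) or 1-2 KO replicate 3 (0.0540), and with library size alone (0.187). SSB was higher in 1-2 KO than in 1-1 KO by a log2 fold change of 0.14 (adjusted p = 0.00591).

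SRSF2, the splicing factor, fell slightly in 1-1 KO. Its level was 184, 189 and 175 CPM in WT, 168, 166 and 170 CPM in 1-1 KO, and 178, 182 and 182 CPM in 1-2 KO. Only the 1-1 KO libraries were apart from WT. The log2 fold change was -0.12 in 1-1 KO (95% interval -0.20 to -0.04, adjusted p = 0.00847), a fall of 8.03%, and the call was lost with library size alone (adjusted p = 0.0800). In 1-2 KO it was -0.02 (-0.09 to 0.06, adjusted p = 0.704). SRSF2 was higher in 1-2 KO than in 1-1 KO by a log2 fold change of 0.10 (adjusted p = 0.0194), a call lost without 1-1 KO replicate 1 (0.0602), 1-1 KO replicate 2 (0.0712) or 1-2 KO replicate 2 (0.0533).

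DUSP11, the RNA 5′ phosphatase, was called in neither knockout compared to WT. Its level was 34.3, 34.4 and 33.0 CPM in WT, 30.8, 30.6 and 33.6 CPM in 1-1 KO, and 32.9, 35.2 and 35.2 CPM in 1-2 KO. The lines overlapped. The log2 fold change was -0.10 in 1-1 KO (95% interval -0.21 to 0.01, adjusted p = 0.102) and 0.02 in 1-2 KO (-0.09 to 0.13, adjusted p = 0.749). Without 1-1 KO replicate 3, the first became -0.14 (adjusted p = 0.0347). DUSP11 was called higher in 1-2 KO than in 1-1 KO, by a log2 fold change of 0.12 (adjusted p = 0.0489), but the call was lost without WT replicate 1 (0.0588), 2 (0.0569) or 3 (0.0920), 1-1 KO replicate 1 (0.167) or 2 (0.177), or 1-2 KO replicate 2 (0.131) or 3 (0.130), and with both DESeq2 fits (0.0945 and 0.137).

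Per length, SSB and SRSF2 were the most abundant of the 7 and MVP and TEP1 the least. With merged exons as the length, the level was between 52.5 and 66.7 RPKM for SSB and between 55.8 and 63.4 RPKM for SRSF2 over the 9 libraries. SSB stood above SRSF2 in the mean of WT, and below it in the means of both knockouts. Next came NSUN2, at 21.98 to 30.5 RPKM, then PARP4 at 11.7 to 15.2 RPKM and DUSP11 at 7.04 to 8.11 RPKM, in this order in every library. MVP, at 1.94 to 3.16 RPKM, and TEP1, at 1.84 to 3.72 RPKM, changed places, since MVP was above TEP1 in WT and 1-2 KO and below it in 1-1 KO. Among 13659 tested protein-coding genes, SSB and SRSF2 stood above 95.3% in mean level, and MVP and TEP1 above 40.0% and 40.1%. The shell protein MVP, of which a vault holds the most copies, was thus below its cargo PARP4 in mRNA in every library.

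**Figure D4:**
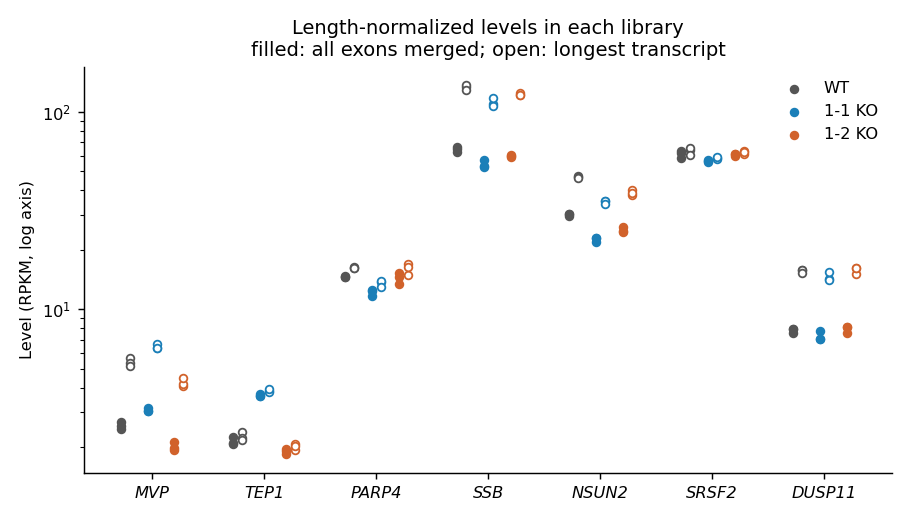
RPKM of the 7 mRNAs in each of the 9 libraries on a log axis, filled with merged exons as the length and open with the longest transcript. With merged exons SSB and SRSF2 lay above 52 RPKM and MVP and TEP1 below 4 RPKM.

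The length used moved some of these levels, because the merged exons of MVP cover 6141 nt and its longest transcript 2925 nt, and those of SSB 5054 and 2463 nt. With the longest transcript, chosen after seeing the data, SSB stood above SRSF2 and MVP above TEP1 in every library, while PARP4 and DUSP11, between NSUN2 and MVP, stood in an order that varied. Comparisons of 1 mRNA between lines do not depend on the length.

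Several of these genes share sequence or exons with others, and whether strand was used in counting is not given in the sources used here. Exons of MFSD11, on the opposite strand, cover 27.7% of the merged exons of SRSF2. MFSD11 was at 9.83 ± 0.719 CPM in WT, 17.1 ± 0.872 in 1-1 KO and 11.8 ± 0.411 in 1-2 KO (SD, n = 3), and rose by a log2 fold change of 0.80 in 1-1 KO (adjusted p = 2.5e-07) where SRSF2 fell. METTL5, an RNA methyltransferase on the opposite strand whose exons cover 11.3% of those of SSB, fell in 1-1 KO by a log2 fold change of -0.26 (adjusted p = 0.000956) and in 1-2 KO by -0.16 (adjusted p = 0.0219), as SSB did. Its call in 1-2 KO was lost without WT replicate 2 (0.112), 1-2 KO replicate 2 (0.0521) or 1-2 KO replicate 3 (0.0798), and with library size alone (0.124). PAGR1, on the strand of MVP, covers 3.01% of the merged exons of MVP and rose in 1-1 KO by a log2 fold change of 0.26 (adjusted p = 0.00878), with 0.18 in 1-2 KO (adjusted p = 0.0715, and 0.0264 without WT replicate 3). MVP-DT, a long non-coding RNA that starts 858 nt from MVP on the other strand, was at 1.10 ± 0.305 CPM in WT, 0.694 ± 0.149 in 1-1 KO and 1.25 ± 0.143 in 1-2 KO (SD, n = 3), a fall in 1-1 KO by a log2 fold change of -0.68 (adjusted p = 0.02) where MVP rose. That call was lost without WT replicate 1 (0.11) or 2 (0.0605), without 1-1 KO replicate 1 (0.0852) or 2 (0.0586), and with both DESeq2 fits (0.0654 and 0.104). Among pseudogene copies, SSBL2P held between 192 and 311 counts per library against at least 10012 for SSB, and PARP4P2 at most 14 counts. What reads of these genes add to the members was not tested.

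SRD5A1, a steroid 5-alpha-reductase gene, starts 136 nt from NSUN2 on the other strand. The bases between both GENCODE 44 starts are shown because the pair went in opposite directions in 1-1 KO, at chr5:6633292-6633426 of GRCh38 on the plus strand, in which SRD5A1 is read to the right and NSUN2 to the left.
NSUN2-SRD5A1 stretch: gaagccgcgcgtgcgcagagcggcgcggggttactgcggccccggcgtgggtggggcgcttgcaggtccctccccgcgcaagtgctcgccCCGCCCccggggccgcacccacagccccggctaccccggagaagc
The stretch is 79.3% G and C, and its 1 match to the GC box letters GGGCGG, found on the minus strand, is in capitals. Of 35116 RefSeq promoter windows of 135 nt, 35.5% held these letters on either strand. SRD5A1 was at 14.7 ± 0.513 CPM in WT, 19.8 ± 0.361 in 1-1 KO and 9.08 ± 0.423 in 1-2 KO (SD, n = 3). It rose in 1-1 KO by a log2 fold change of 0.43 (adjusted p = 2.1e-05) and fell in 1-2 KO by -0.70 (adjusted p = 3.8e-07), whereas NSUN2 fell in both.

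The chromosomal surroundings were set beside each member, as lines can differ over whole stretches of a chromosome. TEP1 lies at chr14:20365667-20413501, where tested genes ran out on one side. Its neighbours were therefore 34 tested genes, 25 on one side and all that remained on the other. In 1-1 KO, these neighbours had a median log2 fold change of 0.46, against 0.29 for the 543 tested genes of chromosome 14. The corresponding medians for 1-2 KO were 0.01 and 0.07. TEP1 at 0.77 in 1-1 KO exceeded its neighbours' median by 0.31, and 10 of the 34 neighbours rose more. In 1-2 KO relative to 1-1 KO, the neighbours had a median of -0.43 and TEP1 -0.94. For the other members, 25 tested genes on each side were taken, 50 in all. Around MVP on chromosome 16, their median was -0.01 in 1-1 KO and 0.08 in 1-2 KO, both near 0, with 10 of 50 above MVP in 1-1 KO and 6 of 50 below it in 1-2 KO. SSB, NSUN2 and SRSF2 fell in 1-1 KO where their neighbours had medians of 0.33, 0.11 and 0.38, and 42, 44 and 44 of 50 neighbours lay above the member. PARP4 at -0.26 stood beside a median of -0.10 in 1-1 KO, and DUSP11 at -0.10 beside -0.05. In 1-2 KO, the medians around PARP4, SSB, NSUN2, SRSF2 and DUSP11 were 0.09, 0.12, -0.14, 0.14 and 0.14, each above the member's own value. In 1-2 KO relative to 1-1 KO, PARP4 at 0.25 stood beside a median of 0.31, and DUSP11 at 0.12 beside 0.14. In that comparison the medians around MVP, SSB, NSUN2 and SRSF2 were 0.00, -0.11, -0.08 and -0.28. The members' own values were -0.61, 0.14, 0.16 and 0.10.

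**Figure D5:**
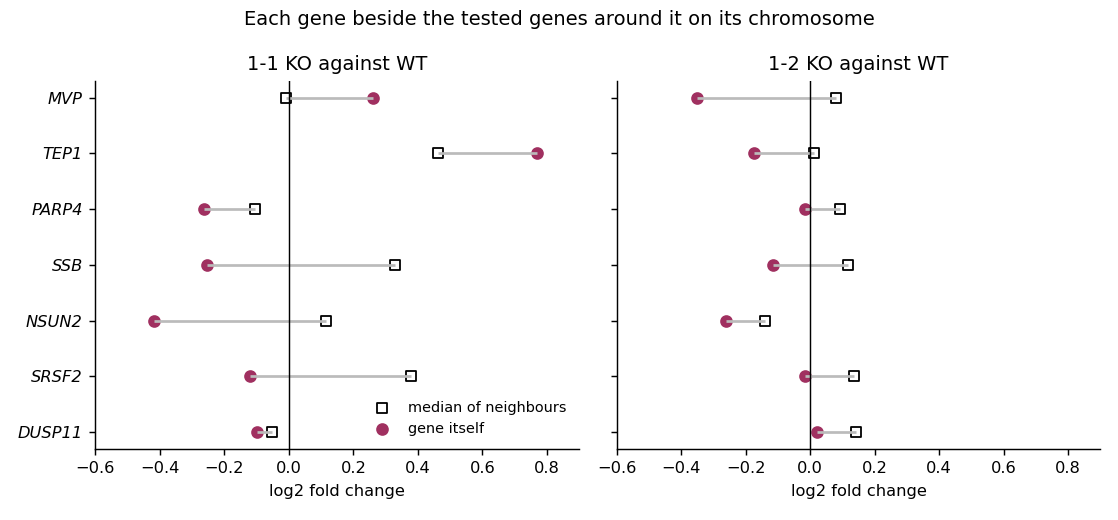
Log2 fold change of each of the 7 genes (filled circles) in 1-1 KO and in 1-2 KO against WT. Open squares give the median of the tested genes around each gene on its chromosome, up to 25 on each side. In 1-1 KO, TEP1 at 0.77 stood beside a median of 0.46, whereas MVP at 0.26 stood beside -0.01 and NSUN2 at -0.42 beside 0.11.

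The genes whose pattern over the 9 libraries lay nearest to each member were found by the root mean square (RMS) difference of centred log2 CPM among 9116 genes whose mean level reached 10 CPM. For MVP these were COG4, C6orf62 and GET3, with RMS differences of 0.03, 0.04 and 0.04 on the log2 scale. For TEP1 they were ZBTB38, MANBA and ALDH1A1, at 0.04 each. NUP98, BICC1 and AP3S2 lay nearest to PARP4, and DCAF10, FLOT2 and ARAF nearest to NSUN2. OGA, NSUN3 and RBM25 lay nearest to SSB, NUFIP2, MAP3K4 and ZNF638 nearest to SRSF2, and KIDINS220, BPNT1 and SPPL2A nearest to DUSP11. None of the nearest genes was another member.

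Of other proteins known to bind vtRNA, 3 were on the list. SQSTM1, the autophagy receptor p62, was at 381 ± 12.2 CPM in WT, 304 ± 2.63 in 1-1 KO and 332 ± 50.4 in 1-2 KO (SD, n = 3). It fell in 1-1 KO by a log2 fold change of -0.33 (adjusted p = 0.00166). In 1-2 KO it was -0.20 (adjusted p = 0.0375), and that call was lost without any 1 of the WT replicates, 1-1 KO replicates 1 and 2 or 1-2 KO replicates 2 and 3 (adjusted p between 0.0505 and 0.183), with both DESeq2 fits (0.107 and 0.245) and with library size alone (0.158). EIF2AK2, the RNA-activated kinase PKR, rose in 1-2 KO by 0.21 (adjusted p = 0.00524), with 0.09 in 1-1 KO (adjusted p = 0.163, but 0.0282 with library size alone). RIGI, the sensor RIG-I, was below 1 CPM in the mean of WT and was called in neither, although in 1-2 KO it had a log2 fold change of 0.47 (adjusted p = 0.059) and was called without 1-2 KO replicate 3 (0.0164). Of the 3 genes, 0 rose and 1 fell in 1-1 KO, against 1 and 1 in 1-2 KO. The 0 was also 0 at an unadjusted p under 0.05, and 1 with library size alone. Shares called over all tested genes were 32.5% higher and 30.9% lower in 1-1 KO, and 28.2% and 26.2% in 1-2 KO.

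Among 7 reported partners of MVP, 1 rose and 4 fell in 1-1 KO, against 2 and 3 in 1-2 KO, with median log2 fold changes of -0.18 and 0.08. Over all tested genes, 32.5% were called higher and 30.9% lower in 1-1 KO, and 28.2% and 26.2% in 1-2 KO. PTPN11, the phosphatase SHP2, fell by -0.19 and -0.41 (adjusted p = 9.0e-05 and 7.5e-08). SRC rose in both, by 0.44 and 0.42 (adjusted p = 2.7e-06 and 5.9e-06). The ubiquitin ligase gene COP1 fell by -0.36 in 1-1 KO (adjusted p = 5.7e-07) and rose by 0.15 in 1-2 KO (adjusted p = 0.00176).

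The other PARP family genes did not share one direction. Of 15 tested, 7 rose and 4 fell in 1-1 KO, against 7 and 3 in 1-2 KO, with medians of 0.00 and 0.02. Over all tested genes, 32.5% were called higher and 30.9% lower in 1-1 KO, and 28.2% and 26.2% in 1-2 KO. PARP14 and PARP9 rose in 1-1 KO by log2 fold changes of 1.21 and 0.78 (adjusted p = 1.5e-10 and 6.9e-08). In 1-2 KO they were 0.23 (adjusted p = 0.0025) and -0.12 (adjusted p = 0.137). PARP1, the DNA break sensor, fell by -0.40 in 1-1 KO (adjusted p = 7.6e-08) and rose by 0.31 in 1-2 KO (adjusted p = 1.6e-06), the reverse of MVP and TEP1. TNKS2, a tankyrase, fell by -0.33 in 1-2 KO (adjusted p = 3.0e-06). Of 8 genes listed as telomerase proteins, 1 rose and 2 fell in 1-1 KO, against 0 and 3 in 1-2 KO. In 1-2 KO, 0 also rose at an unadjusted p under 0.05 and with DESeq2. The 1 that rose in 1-1 KO became 0 without WT replicate 1 and 2 with library size alone. DKC1, which holds telomerase RNA, fell in both, by -0.34 and -0.25 (adjusted p = 2.1e-06 and 6.0e-05), NHP2 fell by -0.70 in 1-1 KO (adjusted p = 2.1e-07) and NOP10 by -0.55 in 1-2 KO (adjusted p = 5.0e-07).

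Of the La-related proteins and RO60, 1 of 7 rose and 4 fell in 1-1 KO, against 3 and 3 in 1-2 KO. Shares called over all tested genes were 32.5% higher and 30.9% lower in 1-1 KO, and 28.2% and 26.2% in 1-2 KO. LARP4B, a relative of La that binds mRNA, was at 105 ± 2.38 CPM in WT, 53.2 ± 1.39 in 1-1 KO and 55.5 ± 2.36 in 1-2 KO (SD, n = 3), with log2 fold changes of -0.98 and -0.92 (adjusted p = 8.7e-11 and 1.9e-10). LARP6, which binds collagen mRNA, fell by -0.81 in 1-1 KO (adjusted p = 1.2e-06) and rose by 0.77 in 1-2 KO (adjusted p = 1.3e-06), and LARP1B rose by 0.71 in 1-1 KO (adjusted p = 9.3e-08). In 1-2 KO, LARP1B was among the 3 that rose, by 0.15 (adjusted p = 0.0492). That call was lost without WT replicate 2 or 3, 1-1 KO replicate 1 or 3, or 1-2 KO replicate 2 or 3 (0.0557 to 0.246). Both DESeq2 fits (0.12 and 0.164) and further settings lost it too.

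NSUN2 is one of a family of writers of RNA 5-methylcytosine, a mark that ALYREF and YBX1 read. Of the 8 others tested, 1 rose and 5 fell in 1-1 KO, against 0 and 6 in 1-2 KO, with median log2 fold changes of -0.18 and -0.42 against 0.01 and 0.02 over all tested genes. The shares called over all tested genes were 32.5% higher and 30.9% lower in 1-1 KO, and 28.2% and 26.2% in 1-2 KO. In 1-1 KO the count of 5 was 3 without 1-1 KO replicate 1 and 3 with library size alone. In 1-2 KO, 0 rose and 8 fell at an unadjusted p under 0.05, and 0 rose with DESeq2. YBX1, a reader, was at 610 ± 13.5 CPM in WT, 465 ± 2.63 in 1-1 KO and 466 ± 2.88 in 1-2 KO (SD, n = 3), with log2 fold changes of -0.39 in both (adjusted p = 9.0e-08 and 1.4e-07). The writer TRDMT1 fell by -0.98 and -0.45 (adjusted p = 6.3e-09 and 1.7e-05), and NSUN5 by -0.14 and -0.46 (adjusted p = 0.0164 and 1.3e-06). The NSUN5 call in 1-1 KO was lost without WT replicate 3 (0.0981) or 1-1 KO replicate 1 (0.0552), and with library size alone (0.111).

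SRSF2 belongs to the SR proteins, which bind exons and guide splicing. Of 13 other SR proteins and TRA2 factors tested, 1 rose and 10 fell in 1-1 KO, 4 and 4 did so in 1-2 KO, and 9 were higher and 0 lower in 1-2 KO than in 1-1 KO, with medians of -0.21, 0.02 and 0.21. The 0 was also 0 at an unadjusted p under 0.05 and under every alternative tried. Over all tested genes, 32.5% were called higher and 30.9% lower in 1-1 KO, and 28.2% and 26.2% in 1-2 KO. Between the knockouts these shares were 33.1% higher and 32.2% lower in 1-2 KO. SRSF9 fell by -0.40 and SRSF11 by -0.38 in 1-1 KO (adjusted p = 5.0e-07 and 8.5e-07), SRSF3 fell by -0.24 in 1-2 KO (adjusted p = 0.000398), and SRSF8 rose in both, by 0.31 and 0.73 (adjusted p = 0.00177 and 7.6e-07). Of 6 kinases that phosphorylate SR proteins, 1 rose and 4 fell in 1-1 KO, against 2 and 2 in 1-2 KO. SRPK1 fell in both by -0.40 and -0.34 (adjusted p = 8.5e-07 and 6.3e-06), CLK3 by -0.43 and -0.33 (adjusted p = 1.1e-06 and 1.6e-05), and SRPK2 and CLK2 fell by -0.41 and -0.75 in 1-1 KO (adjusted p = 1.4e-07 and 2.3e-07) and rose by 0.19 and 0.28 in 1-2 KO (adjusted p = 0.000347 and 0.00191).

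DUSP11 acts on the RNA 5′ end, as capping, decapping and exonuclease enzymes do. All 7 of these on the list were called in each knockout, 5 higher and 2 lower in 1-1 KO and 1 higher and 6 lower in 1-2 KO, with medians of 0.12 and -0.28. The 5 became 3 without 1-1 KO replicate 1, and also with DESeq2 on all libraries or no filter. Over all tested genes, 32.5% were called higher and 30.9% lower in 1-1 KO, and 28.2% and 26.2% in 1-2 KO. DXO, a decapping exonuclease, fell in both by -0.76 and -0.50 (adjusted p = 5.3e-06 and 0.000327), NUDT16, a decapping enzyme, rose in both by 0.57 and 0.48 (adjusted p = 6.3e-06 and 4.8e-05), and the capping enzyme RNGTT fell by -0.15 and -0.34 (adjusted p = 0.00507 and 6.8e-06).

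Dicer cuts vtRNA into small fragments that Argonaute proteins can carry. Of 10 tested genes of the Dicer and Argonaute pathway, 2 rose and 5 fell in 1-1 KO, against 3 and 3 in 1-2 KO. The 2 became 1 without WT replicate 1, and the 3 that rose in 1-2 KO became 1 without WT replicate 1 or 2 or any 1-1 KO replicate, or with only 2 lines in the fit. Over all tested genes, 32.5% were called higher and 30.9% lower in 1-1 KO, and 28.2% and 26.2% in 1-2 KO. DICER1 was at 50.7 ± 1.28 CPM in WT, 74.8 ± 2.39 in 1-1 KO and 51.0 ± 1.99 in 1-2 KO (SD, n = 3), a rise in 1-1 KO by a log2 fold change of 0.56 (adjusted p = 4.0e-08) with 0.01 in 1-2 KO (adjusted p = 0.91). DROSHA fell in 1-2 KO by -0.96 (adjusted p = 8.5e-10), with 0.01 in 1-1 KO (adjusted p = 0.929), and its partner DGCR8 fell by -0.51 in 1-1 KO (adjusted p = 1.5e-07) and rose by 0.32 in 1-2 KO (adjusted p = 1.7e-05). Of 13 factors of the RNA 3′ end, 3 rose and 6 fell in 1-1 KO, against 1 and 6 in 1-2 KO, where the 1 became 2 without 1-1 KO replicate 3 or 1-2 KO replicate 3, with no filter or with library size alone, and the 6 became 2 without WT replicate 2, 3 without 1-2 KO replicate 3 and 1 with library size alone. LSM8 fell by -0.50 in 1-1 KO (adjusted p = 4.0e-07), the exonuclease DIS3L2 by -0.64 in 1-1 KO (adjusted p = 6.2e-07), LSM7 by -0.40 in 1-2 KO (adjusted p = 0.000596), and USB1 rose by 0.20 in 1-2 KO (adjusted p = 0.00264).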

How the data were processed

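Stranded mRNA libraries of the 3 Huh-7 lines, 3 per line, were read in pairs. STAR was used by the authors for alignment to hg38 (annotation version 104) and featureCounts for counting, and what they deposited are raw read counts. The strand setting and the handling of reads with several matches are not given in the sources used here. The 7 genes and all gene lists were chosen with earlier results of these data known. Gene positions and lengths came from GENCODE 44, which held 60463 of the 60664 identifiers.

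Counts were tested with edgeR 4.0.16 in R 4.3.3 (filterByExpr at 10 counts and a total of 15, TMM, quasi-likelihood test, 1 fit of all 9 libraries, Benjamini-Hochberg adjustment over 17207 genes, threshold 0.05). The common biological coefficient of variation was 5.55%, and total counts were between 32384469 and 41782387. The 95% intervals used the moderated degrees of freedom of that fit. RPKM was computed from the counts, TMM library sizes and merged exon lengths. Ratios were compared with an exact permutation test. Alternatives were DESeq2 1.42.0 (all libraries or only the 2 lines compared), DESeq2 size factors or library size alone, other filters, only 2 lines in the fit, a replicate term, a threshold of 0.01, the longest transcript as length, and leaving out each library. The fit was tested on simulated counts.

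Besides the 7 members and the 4 vault RNA genes, the text names of each list the 2 genes with the smallest adjusted p per knockout, genes that overlap a member or start within 1000 nt of its start, and the 3 genes with the nearest pattern (log2 of CPM plus 0.1, mean of at least 10 CPM). Pseudogenes, CD3E, CDH5, VWF, DCN, ALYREF and RO60 were named outside this rule. Some genes that the rule selects are not reported here.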

Additional observations from a re-analysis of the deposited data

Results flagged for a closer look

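MVP and TEP1 were marked because both were called in each knockout compared to WT in opposite directions and the direct test between the knockouts passed. For MVP, the log2 fold change of 1-2 KO relative to 1-1 KO was -0.61 (adjusted p = 7.4e-07 in edgeR's quasi-likelihood test), with 0.26 in 1-1 KO and -0.35 in 1-2 KO against the same WT libraries. For TEP1 it was -0.94 (adjusted p = 8.2e-10), with 0.77 and -0.17. The second of these lost its call without WT replicate 1, with DESeq2 on the 2 lines alone and with library size alone. The genes around TEP1 on chromosome 14 had a median log2 fold change of -0.43 between the knockouts and those around MVP on chromosome 16 a median of 0.00. The part of the surrounding chromosome in either result was not tested.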

How the results depend on the processing

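Over 17 alternatives and 3 comparisons, 326 of 357 member log2 fold changes kept their direction and their side of the threshold, 25 lost the call, 1 gained it and 5 changed sign, the last being values that were not called. With library size alone, PARP4 became 0.039 and SRSF2 0.038 in 1-2 KO against WT. Leaving out 1 library there gave between -0.055 and 0.032 for PARP4, -0.068 and 0.0064 for SRSF2, and -0.017 and 0.053 for DUSP11. Members called lower in 1-2 KO compared to WT numbered 4, and 2 with library size alone or an adjusted p under 0.01. Members called higher in 1-2 KO than in 1-1 KO numbered 5, and 3 with no filter or an adjusted p under 0.01. Leaving out 1 library gave between 2 and 4 of the former and between 3 and 5 of the latter. The cause of these losses was not tested. Library size alone moved the median of all tested genes from 0.01 to 0.06 in 1-1 KO and from 0.02 to 0.07 in 1-2 KO.

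With the longest transcript as length, MVP/PARP4 was 0.332 in WT, 0.479 in 1-1 KO and 0.264 in 1-2 KO, MVP/TEP1 was 2.38, 1.68 and 2.11, and TEP1/PARP4 was 0.139 in WT and 0.125 in 1-2 KO. The order of mean levels then had MVP at 6 in place of 7, TEP1 at 7 in place of 6, PARP4 at 5 in place of 4 and DUSP11 at 4 in place of 5.

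Libraries with the same replicate number were treated as unpaired. Their deviations from the line means correlated between -0.38 and 0.17, and those of libraries with different numbers between -0.35 and 0.47. With 3 libraries per line, these values cannot show whether libraries were made in pairs. A replicate block changed 1 member call, DUSP11 in 1-2 KO against 1-1 KO (log2 fold change 0.12, adjusted p = 0.0688). MVP had the fewest counts of the 7, at least 477 per library, and a larger standard error (0.06 on the log2 scale in 1-1 KO against WT) than NSUN2 (0.03). Counts of vtRNA, at most 2 per library and gene, were too few to compare.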
